A study of Homo sapiens with 12 samples.

Results

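The 10 genes described here encode cyclins, cyclin-dependent kinases (CDKs) and CDK inhibitors that act in G1: CCND3, CCNE1 and CCNE2; CDK4 and CDK6; CDKN1A, CDKN1B and CDKN1C; and CDKN2A and CDKN2B. They were taken by symbol from the deposited expression tables of both cell lines and were chosen by name, not by measured values. They are 10 of the 26115 gene symbols present in both tables. The series holds 12 messenger RNA libraries from KYSE410 and KYSE150, established lines of human esophageal squamous carcinoma whose genotype is labelled WT. Each line was grown in 0.5% oxygen (hypoxia) or 21% oxygen (normoxia), with 3 libraries in each of the 4 groups. The labels give 48 h for hypoxia and 0 for normoxia, whereas the series' design text gives 48 h for both, so how long normoxic cells had been cultured is unclear. The labels do not say whether replicates were grown separately; p-values thus reflect the spread between libraries of a group, which may be technical. Values are FPKM (fragments per kilobase of transcript, scaled to the size of the library), a level per transcript length, and changes are differences in log2(FPKM + 1), which understate the change of genes at low levels. A gene was called where its adjusted p was under 0.05 (limma, Benjamini-Hochberg over all genes tested).

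Progress through G1 is set by D-type cyclins bound to CDK4 or CDK6 and by E-type cyclins bound to CDK2, which together phosphorylate the retinoblastoma protein and release E2F transcription factors. The INK4 inhibitors, among them p16INK4a from CDKN2A and p15INK4b from CDKN2B, bind CDK4 and CDK6 alone. The CIP/KIP inhibitors p21 (CDKN1A), p27 (CDKN1B) and p57 (CDKN1C) bind cyclin-CDK complexes and restrain CDK2. In esophageal squamous carcinoma, gain of CCND1 or CDK6 and loss of CDKN2A are well-known lesions of this pathway.

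NDRG1 and CA9, genes known to be induced by hypoxia, were higher in hypoxic libraries of both lines. NDRG1 had 1194 ± 60.4 FPKM in hypoxic and 16.0 ± 2.08 FPKM in normoxic KYSE410, and 1072 ± 22.7 FPKM in hypoxic and 71.1 ± 5.89 FPKM in normoxic KYSE150 (SD, n = 3 each). CA9 averaged 54.7 FPKM in hypoxic and 4.05 FPKM in normoxic KYSE410, and 76.8 FPKM in hypoxic and 9.80 FPKM in normoxic KYSE150. Of 9 epithelial markers, 7 averaged at least 1 FPKM in both KYSE410 groups and 3 in both KYSE150 groups, with sums of 1645 to 1697 FPKM in hypoxic and 2127 to 2255 FPKM in normoxic KYSE410 and of 677.8 to 702.6 FPKM in hypoxic and 552.8 to 716.1 FPKM in normoxic KYSE150. In KYSE150 the squamous markers KRT5, KRT14 and TP63 and the adhesion gene CDH1 averaged under 1 FPKM at both oxygen levels, with KRT5 at 0.0777 FPKM in hypoxia and 0 in normoxia. The summed level of 5 immune markers was 80.8 to 85.6 FPKM in hypoxic and 29.8 to 32.7 FPKM in normoxic KYSE410, and 27.3 to 31.0 FPKM in hypoxic and 15.8 to 17.8 FPKM in normoxic KYSE150. CD68 was its one gene at 1 FPKM or more, while PTPRC, which defines leukocytes, averaged at most 0.0162 FPKM in any group. At most 1 of 5 fibroblast markers and none of 4 endothelial markers averaged 1 FPKM or more, and the part of these lists in the results was not tested. One library stood apart: in KYSE150 normoxia replicate 2 the deviation from the other normoxic libraries was lower for longer transcripts (Spearman rho -0.64 over 11828 genes; genes are no independent replicates). In KYSE410 the normoxic libraries carry sample-sheet numbers 38 to 40 and the hypoxic ones 56 to 58, and there the effect of oxygen and that of the library set implied by these numbers cannot be told apart. The KYSE150 libraries run from 50 to 55. Any difference in response between lines includes the KYSE410 change, so it carries the same limit. In bulk RNA, a lower value can come from fewer cells with the transcript or from less RNA per cell, and these cannot be told apart.

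In KYSE410, 7 of the 10 genes averaged 1 FPKM or more and were tested; 4 were higher in hypoxia (CDK4, CDKN1A, CDKN1B and CDKN2A) and 3 lower (CCND3, CDK6 and CDKN2B). In KYSE150 all 10 were tested; 3 were higher (CDKN1A, CDKN1B and CDKN1C), 6 lower (CCND3, CCNE1, CDK4, CDK6, CDKN2A and CDKN2B) and CCNE2 was not called. Calls were common in these data: 31.2% of all tested genes were higher and 51.9% lower in hypoxic KYSE410, and 23.5% were higher and 38.8% lower in hypoxic KYSE150. Hypoxic and normoxic libraries lay apart for each of the 7 tested genes in KYSE410 (84.6% of all tested genes) and for 9 of the 10 in KYSE150 (69.6%). They also lay apart for CCNE2 in KYSE410, where it was not tested. The member counts are therefore read gene by gene, by direction and size. The median log2 change of all tested genes was -0.21 in KYSE410 and -0.13 in KYSE150. After scaling to the median of ratios, which moved both medians to 0.00, 5010 genes were higher and 4998 lower in KYSE410, against 3763 and 6254 as deposited, and 3905 were higher and 3815 lower in KYSE150, against 2981 and 4925 as deposited. Rescaling each library to a common FPKM sum moved the KYSE410 median to -0.46, with 2743 genes higher and 7497 lower.

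**Figure D1:**
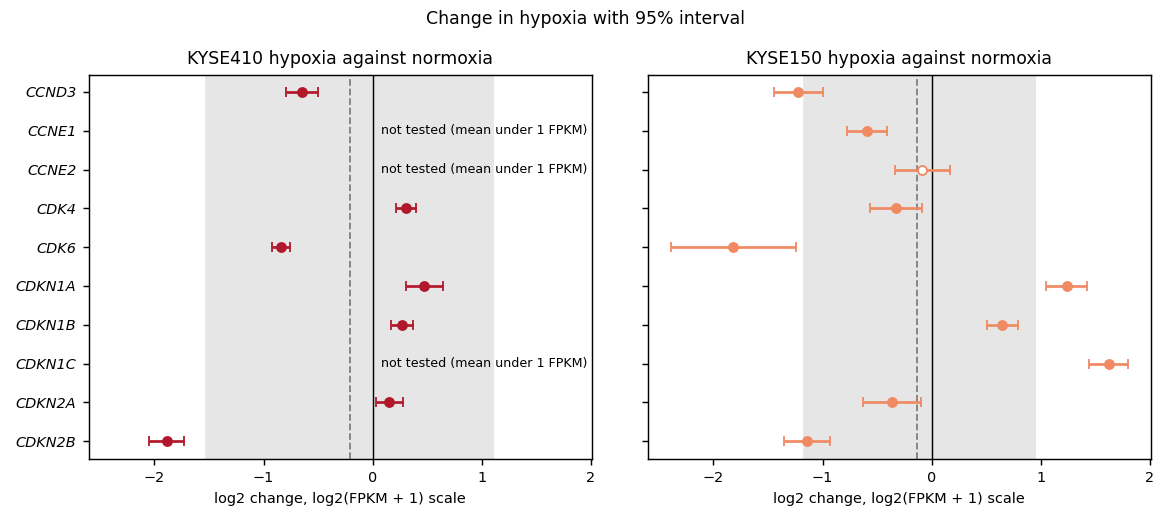
Log2 change of each gene in hypoxia against normoxia in KYSE410 (left) and KYSE150 (right), on the log2(FPKM + 1) scale, with the 95% interval; filled points were called, the open point was not, the dashed line is the median and the grey band the 5th to 95th percentile of all tested genes. CCND3, CDK6 and CDKN2B lie left of 0 and CDKN1A and CDKN1B right of 0 in both lines, while CDK4 and CDKN2A lie on opposite sides.

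The cyclin genes differed from one another in level and in response. CCND3 (chromosome 6, 41934933 to 42050357, minus strand, hg38), which encodes a D-type cyclin that activates CDK4 and CDK6, had 6.11, 6.81 and 6.25 FPKM in hypoxic KYSE410, against 11.4, 10.2 and 10.1 FPKM in normoxic KYSE410. In KYSE150 it had 19.2, 20.4 and 18.1 FPKM in hypoxia, against 42.8, 52.5 and 43.4 FPKM in normoxia. Every hypoxic library lay below every normoxic library of its line. The log2 change was -0.64 ± 0.06 (SE) in KYSE410 (limma, adjusted p = 1.76e-05) and -1.22 ± 0.10 in KYSE150 (limma, adjusted p = 2.98e-05). In KYSE410 the fall was -0.42 after median-of-ratios scaling and -0.32 after quantile normalization, and stayed called in both.

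CCNE1 (chromosome 19, 29811898 to 29824308, plus strand), for cyclin E1, a partner of CDK2, was near the detection floor in KYSE410, with 0.397, 0.560 and 0.625 FPKM in hypoxia and 0.809, 1.09 and 0.528 FPKM in normoxia. These groups overlapped, and the gene was under the filter of 1 FPKM there. KYSE150 libraries held 6.39, 6.09 and 6.46 FPKM in hypoxia, against 9.39, 10.8 and 9.89 FPKM in normoxia, with no overlap and a log2 change of -0.59 ± 0.08 (limma, adjusted p = 0.000429). CCNE2 (chromosome 8, 94879770 to 94896678, minus strand), for cyclin E2, the other partner of CDK2, went the other way in KYSE410: hypoxic libraries had 1.46, 1.26 and 0.934 FPKM and normoxic ones 0.393, 0.304 and 0.255 FPKM. The groups did not overlap, but the mean stayed under the filter. With the minimum lowered to 0.1 FPKM its log2 change was 0.75 ± 0.10 (limma, adjusted p = 0.000246), and that of CCNE1 was -0.23 (limma, adjusted p = 0.119). In KYSE150 CCNE2 had 6.65, 5.88 and 6.72 FPKM in hypoxia and 7.17, 5.85 and 7.66 FPKM in normoxia. Those groups overlapped, and the log2 change was -0.08 with a 95% interval of -0.34 to 0.17 (limma, adjusted p = 0.520); its sign turned under 3 alternatives.

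The balance of the E-type cyclin genes therefore differed between lines. CCNE2 made up 59.9% to 78.6% of summed CCNE1 and CCNE2 FPKM in hypoxic KYSE410 and 21.8% to 32.7% in normoxic KYSE410. In KYSE150 its share was 49.1% to 51% in hypoxia and 35.1% to 43.7% in normoxia. The share was higher in every hypoxic library of either line, in KYSE410 through more CCNE2 and in KYSE150 through less CCNE1. The 3 cyclin genes summed to 7.81 to 8.63 FPKM in hypoxic and 10.9 to 12.6 FPKM in normoxic KYSE410, and to 31.3 to 32.3 FPKM in hypoxic and 59.4 to 69.2 FPKM in normoxic KYSE150. With the exon variants of all annotated transcripts counted separately, 3 CCNE2 exon variants overlap exons of the opposite-strand gene INTS8. INTS8 averaged 11 FPKM in hypoxic and 8.56 FPKM in normoxic KYSE410. The strand setting of the authors' counting is not given in the sources used here, so reads in the overlap cannot be assigned.

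**Figure D2:**
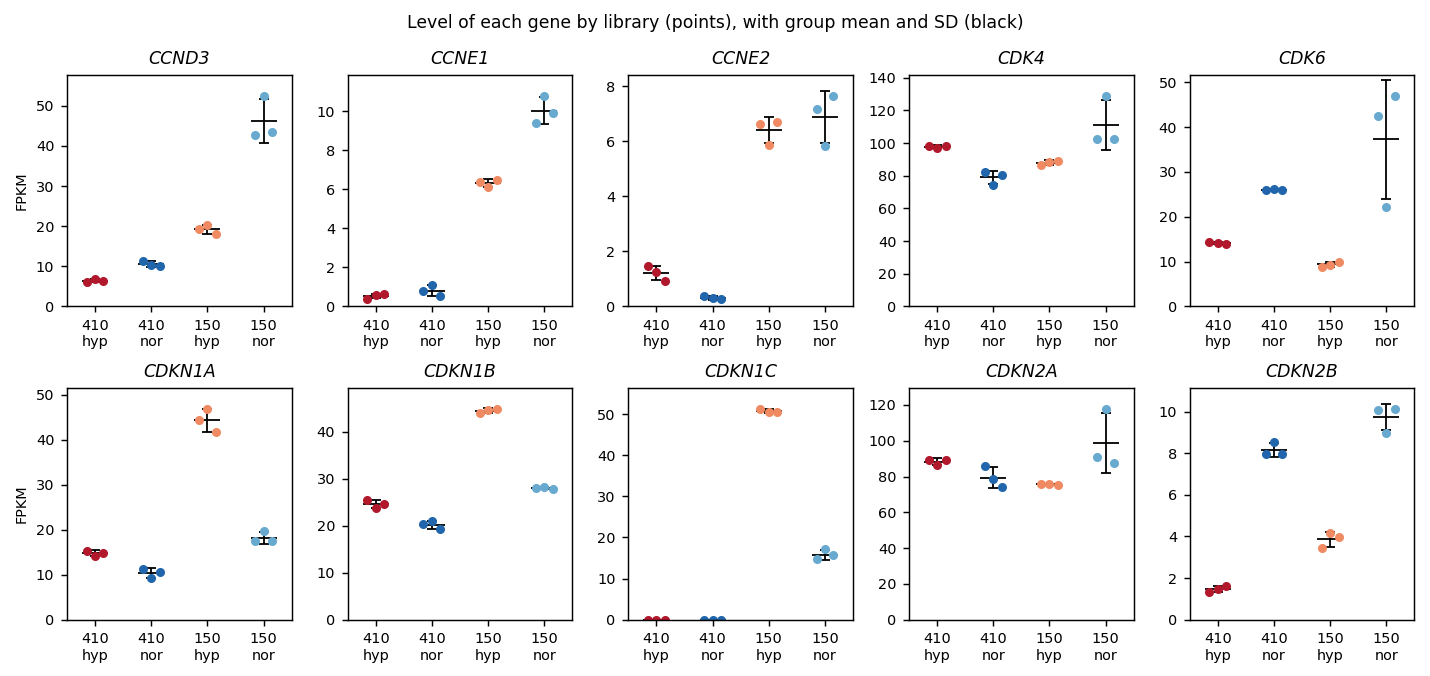
FPKM of each of the 10 genes in every library (points, replicates 1 to 3 from left to right) with the group mean and SD in black (hyp is hypoxia, nor is normoxia), and each panel has its own axis starting at 0. CDKN1C is at or near 0 in all 6 KYSE410 libraries and highest in hypoxic KYSE150, and the CDK6 point at 22.1 FPKM in normoxic KYSE150 is replicate 2.

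CDK4 and CDK6, the kinases that D-type cyclins activate, differed in direction in KYSE410. CDK4 (chromosome 12, 57747727 to 57756013, minus strand) had 98.3, 96.8 and 98.3 FPKM in hypoxic KYSE410, against 82.1, 74.5 and 80.4 FPKM in normoxic KYSE410, where it was higher in every hypoxic library (log2 change 0.31 ± 0.04, limma, adjusted p = 0.000128). In KYSE150 it had 86.3, 88.6 and 89.0 FPKM in hypoxia, against 102.3, 129.1 and 102.3 FPKM in normoxia, where every hypoxic library was lower (log2 change -0.33 ± 0.10, limma, adjusted p = 0.0235). The opposite directions were tested directly: the response differed by 0.63 ± 0.11 between KYSE410 and KYSE150 (limma interaction, adjusted p = 0.00045), and this was called under every alternative run. Each direction on its own was less firm. The KYSE410 rise was 0.07 after rescaling to a common sum (limma, adjusted p = 0.189) and 0.55 after median-of-ratios scaling. The KYSE150 fall was -0.17 after median-of-ratios scaling (limma, adjusted p = 0.186) and lost its call without hypoxia replicate 1, 2 or 3 (limma, adjusted p = 0.0651 to 0.0789). Without normoxia replicate 2 it was smaller, at -0.22, but still called (limma, adjusted p = 0.000674). TSPAN31, on the opposite strand, overlaps 11 annotated CDK4 exon variants. It averaged 7.05 FPKM in hypoxic and 5.55 FPKM in normoxic KYSE410 and 4.72 FPKM in hypoxic and 4.22 FPKM in normoxic KYSE150.

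The CDK4 promoter is shown because CDK4 is the most abundant of these genes in 3 of the 4 groups and its upstream window holds the letters CACGTG, the E-box to which MYC and its partner MAX bind, at 3 places. The window is the 250 bases before the RefSeq start (GRCh38.p14, chr12:57752311-57752560, minus strand, read in the direction of the gene), with CACGTG in capitals:
CDK4: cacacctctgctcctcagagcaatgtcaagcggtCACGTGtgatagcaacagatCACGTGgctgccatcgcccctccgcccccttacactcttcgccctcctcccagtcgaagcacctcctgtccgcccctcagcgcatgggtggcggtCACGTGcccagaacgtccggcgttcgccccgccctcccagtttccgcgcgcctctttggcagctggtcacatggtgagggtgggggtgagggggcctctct
CACGTG was added to the search after this window had been seen. It occurs in 6.3% of 35116 RefSeq promoter windows of the same length and overlaps ACGTG, a core of the hypoxia response element, on both strands at each place. A match is a run of letters, not a measured binding site.

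CDK6 (chromosome 7, 92604921 to 92836594, minus strand) was lower in hypoxia in both lines. Hypoxic KYSE410 libraries had 14.3, 14.1 and 14 FPKM, against 25.9, 26.2 and 26.0 FPKM in normoxic ones, with a log2 change of -0.84 ± 0.04 (limma, adjusted p = 1.02e-07). In hypoxic KYSE150 it had 8.89, 9.18 and 9.99 FPKM, against 42.6, 22.1 and 47.0 FPKM in normoxic KYSE150, a log2 change of -1.82 ± 0.25 (limma, adjusted p = 0.000432). No groups overlapped, but normoxia replicate 2 of KYSE150 lay 0.98 below the other normoxic libraries on the log2 scale, the farthest of the 10 genes. CDK6 also has the longest transcript of the 10 (11612 bases), and this is the library whose values fell with length. Without that library the KYSE150 change was -2.15 (limma, adjusted p = 1.50e-07). The change in KYSE410 also ran with transcript length across genes (Spearman rho -0.27), and removing the length trend from each library, an alternative chosen after seeing the data, left a log2 change of -0.31 for CDK6 in KYSE410 (limma, adjusted p = 4.68e-05) and -1.81 in KYSE150.

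As a share of summed CDK4 and CDK6 FPKM, CDK6 made up 12.5% to 12.7% in hypoxic KYSE410 and 24.0% to 26.0% in normoxic KYSE410. In KYSE150 the share was 9.34% to 10.1% in hypoxia, against 29.4%, 14.6% and 31.5% in the normoxic replicates 1, 2 and 3. CDK4 thus supplied most of the kinase message in all 12 libraries, and the more so in hypoxia.

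The CIP/KIP genes CDKN1A and CDKN1B rose in both lines, and CDKN1C rose in KYSE150. CDKN1A (chromosome 6, 36676460 to 36687339, plus strand), for p21, the best-known cell-cycle target of p53, had 15.3, 14.1 and 14.9 FPKM in hypoxic KYSE410, against 11.3, 9.18 and 10.6 FPKM in normoxic KYSE410. Hypoxic KYSE150 libraries had 44.4, 46.9 and 41.7 FPKM, against 17.4, 19.7 and 17.4 FPKM in normoxic ones. All hypoxic libraries were above all normoxic libraries of their line, by 0.48 ± 0.07 on the log2 scale in KYSE410 (limma, adjusted p = 0.000304) and 1.24 ± 0.08 in KYSE150 (limma, adjusted p = 1.21e-05). In KYSE410 the rise ranged from 0.26 after rescaling to a common sum to 0.74 after quantile normalization, and was called in both. DINOL, on the opposite strand, overlaps 2 annotated CDKN1A exon variants, and reads there cannot be assigned.

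CDKN1B (chromosome 12, 12715058 to 12722371, plus strand), for p27, whose protein is largely set by degradation through SKP2, had smaller log2 changes than CDKN1A in both lines. It had 25.4, 23.8 and 24.6 FPKM in hypoxic KYSE410 and 20.3, 21.0 and 19.3 FPKM in normoxic KYSE410. In KYSE150 it had 43.9, 44.6 and 44.8 FPKM in hypoxia and 28.1, 28.2 and 27.9 FPKM in normoxia. The groups did not overlap in either line, and the log2 changes were 0.27 ± 0.04 in KYSE410 (limma, adjusted p = 0.000479) and 0.65 ± 0.06 in KYSE150 (limma, adjusted p = 6.93e-05). The KYSE410 rise was 0.04 after rescaling to a common sum (limma, adjusted p = 0.429) and 0.51 after median-of-ratios scaling.

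The promoters of CDKN1A and CDKN1B are shown because these genes were higher in hypoxia in both lines. The 250 bases before each RefSeq start (GRCh38.p14) are on the plus strand, at chr6:36678464-36678713 for CDKN1A and chr12:12717118-12717367 for CDKN1B, with matches to the hypoxia response element cores ACGTG or GCGTG, on either strand, in capitals:
CDKN1A: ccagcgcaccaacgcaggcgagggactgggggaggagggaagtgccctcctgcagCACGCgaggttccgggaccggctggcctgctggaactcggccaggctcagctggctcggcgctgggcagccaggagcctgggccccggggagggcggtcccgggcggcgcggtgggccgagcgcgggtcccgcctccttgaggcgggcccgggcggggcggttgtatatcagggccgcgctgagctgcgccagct
CDKN1B: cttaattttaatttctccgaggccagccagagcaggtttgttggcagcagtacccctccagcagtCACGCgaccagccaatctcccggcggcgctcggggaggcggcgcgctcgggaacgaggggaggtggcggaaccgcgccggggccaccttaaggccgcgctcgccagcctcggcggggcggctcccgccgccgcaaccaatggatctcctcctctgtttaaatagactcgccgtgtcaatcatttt
Each holds 1 core, GCGTG read on the opposite strand, 195 bases upstream of the start in CDKN1A and 185 bases upstream in CDKN1B. A core of either kind occurs in 43.2% of all 35116 windows (ACGTG in 18.5% and GCGTG in 32.2%), so a match is common. Windows were searched for 8 of the 10 genes, and CCNE2 and CDKN1C were not searched. A core was present in 7 of the 12 windows, from 6 of the 8 genes. None of the 8 had either E2F motif searched (TTTCCCGC and TTTGGCGC, both strands), which 1.9% of all windows hold.

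CDKN1C (chromosome 11, 2883213 to 2885773, minus strand), an imprinted gene for p57, averaged 1 FPKM or more in KYSE150 only. In KYSE150 it had 51.3, 50.4 and 50.5 FPKM in hypoxia, against 14.7, 17.1 and 15.7 FPKM in normoxia. The groups were far apart, with a log2 change of 1.62 ± 0.08 (limma, adjusted p = 2.59e-06), the largest rise among the 10 genes. In KYSE410 it was listed at 0 in replicates 1 and 2 and at 0.0186 FPKM in replicate 3 of hypoxia, and at 0 in all 3 normoxic libraries. None of 12 widely used genes was listed at 0 in any library. No fold is given against these values, and the depth behind them is unknown.

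The INK4 genes lie side by side on chromosome 9 and did not move together. Of 4550 runs of 50 bases in CDKN2A transcripts, 31 also occur in CDKN2B (0.7%). CDKN2A (21967753 to 21995301, minus strand) had 89.3, 86.2 and 89.5 FPKM in hypoxic KYSE410, against 85.8, 78.4 and 73.9 FPKM in normoxic KYSE410. In KYSE150 it had 75.7, 76.0 and 75.5 FPKM in hypoxia, against 90.7, 117.8 and 87.8 FPKM in normoxia. It was thus slightly higher in every hypoxic library of KYSE410 and lower in every hypoxic library of KYSE150. The log2 changes were 0.15 ± 0.05 (limma, adjusted p = 0.0241) and -0.37 ± 0.11 (limma, adjusted p = 0.0236). Neither was firm: the KYSE410 change was -0.09 after rescaling to a common sum (limma, adjusted p = 0.177) and 0.40 after median-of-ratios scaling, and was no longer called when normoxia replicate 2, normoxia replicate 3, hypoxia replicate 1 or hypoxia replicate 3 was left out (limma, adjusted p = 0.0617 to 0.0767). In KYSE150 the change was -0.21 after median-of-ratios scaling (limma, adjusted p = 0.15), and the call was lost without hypoxia replicate 1, 2 or 3 (limma, adjusted p = 0.0681 to 0.0697). Without normoxia replicate 2 it was smaller, at -0.23, but still called (limma, adjusted p = 0.000493). The deposited value merges transcripts from separate starts, which encode p16INK4a and the p53-stabilising protein p14ARF. Of the annotated CDKN2A exon variants, 3 overlap the antisense gene CDKN2B-AS1. That gene averaged 0.653 FPKM in hypoxic and 0.439 FPKM in normoxic KYSE410 and 1.38 FPKM in hypoxic and 1.18 FPKM in normoxic KYSE150.

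CDKN2B (22002903 to 22009363, minus strand), for p15INK4b, an inhibitor known to be induced by TGF-beta, was lower in hypoxia in both lines. It had 1.31, 1.47 and 1.64 FPKM in hypoxic KYSE410, against 7.98, 8.54 and 7.95 FPKM in normoxic KYSE410. In KYSE150 it had 3.47, 4.16 and 3.98 FPKM in hypoxia, against 10.1, 8.995 and 10.1 FPKM in normoxia. The groups were well apart, with log2 changes of -1.89 ± 0.07 (limma, adjusted p = 4.78e-08) and -1.14 ± 0.09 (limma, adjusted p = 3.11e-05), called under every alternative run. The ratio of CDKN2A to CDKN2B FPKM was 54.6 to 68.2 in hypoxic and 9.19 to 10.8 in normoxic KYSE410, and 18.3 to 21.8 in hypoxic and 8.67 to 13.1 in normoxic KYSE150. Its promoter is shown beside those of CDKN1A and CDKN1B because it is the inhibitor gene that was lower in both lines (GRCh38.p14, chr9:22009306-22009555, minus strand, read in the direction of the gene); none of the motifs above is in the window:
CDKN2B: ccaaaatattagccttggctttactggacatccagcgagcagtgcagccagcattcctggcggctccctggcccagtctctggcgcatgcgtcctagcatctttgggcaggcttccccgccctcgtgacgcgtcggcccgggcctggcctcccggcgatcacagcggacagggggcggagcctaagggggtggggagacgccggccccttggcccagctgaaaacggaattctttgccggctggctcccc
No match says only that these letters are not in these 250 bases.

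**Figure D3:**
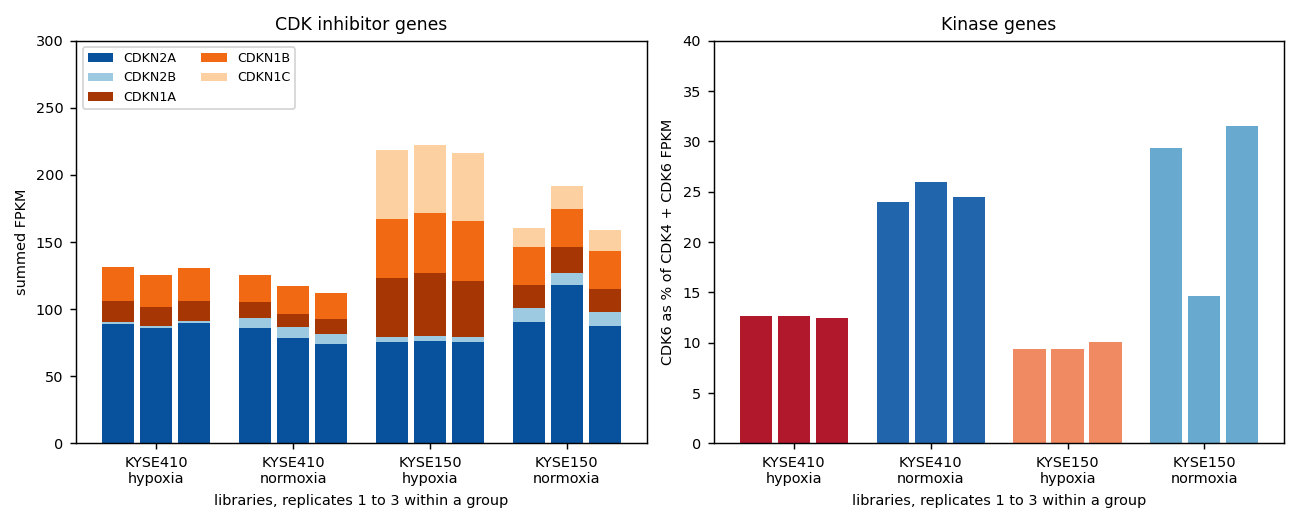
Left, summed FPKM of the 5 CDK inhibitor genes in each library, stacked by gene; right, CDK6 as a percentage of summed CDK4 and CDK6 FPKM in each library, with replicates 1 to 3 side by side in each group. CIP/KIP genes (orange) made up 63.3% to 63.9% of the inhibitor sum in hypoxic KYSE150 and 33.9% to 38.4% in normoxic KYSE150.

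Over the 5 inhibitor genes together, the CIP/KIP share of summed FPKM was 30.2% to 31.0% in hypoxic and 25.2% to 26.8% in normoxic KYSE410. In KYSE150 it was 63.3% to 63.9% in hypoxia and 33.9% to 38.4% in normoxia. The share was higher in every hypoxic library, and in hypoxic KYSE150 the CIP/KIP genes outweighed CDKN2A and CDKN2B. The whole sum was 125.6 to 131.3 FPKM in hypoxic and 111.8 to 125.4 FPKM in normoxic KYSE410, and 216.5 to 222.1 FPKM in hypoxic and 158.9 to 191.8 FPKM in normoxic KYSE150.

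The response to hypoxia differed between lines for 9 of the 10 genes in a joint fit, 5 with a more positive and 4 with a more negative value in KYSE410 (27.3% and 36.0% of all 12653 tested genes; median of all genes -0.09). Among the 10, CCNE1, CCNE2 and CDKN1C were under the filter in KYSE410 and entered the joint fit only through their KYSE150 levels. The calls of CCNE2 and CDKN1C, counted above, therefore add no support. Each interaction also holds the KYSE410 change, in which oxygen and library set cannot be told apart. The interaction, KYSE410 minus KYSE150, was 0.58 ± 0.12 for CCND3, which fell less in KYSE410, and 0.98 ± 0.28 for CDK6, which also fell less there (limma, adjusted p = 0.00117 and 0.0092). The CDK6 value was 0.77 after rescaling to a common sum, where its call was lost (limma, adjusted p = 0.0597), and 1.5 with the length trend removed. CDKN1A and CDKN1B rose less in KYSE410, with interactions of -0.77 ± 0.11 and -0.38 ± 0.07 (limma, adjusted p = 9.69e-05 and 0.000435). CDKN2B fell more in KYSE410 (-0.75 ± 0.11, limma, adjusted p = 0.000109). CCNE2 differed by 0.83 ± 0.15, CDKN2A by 0.52 ± 0.13 and CDKN1C by -1.61 ± 0.09, the last resting on KYSE150 since the gene was listed at or near 0 in KYSE410 (limma, adjusted p = 0.000519, 0.00493 and 5.24e-08). The CDKN2A interaction was 0.26 with the length trend removed and that of CCNE2 was 1.75 with a pseudocount of 0.1. Rescaling to a common sum gave 0.27 for CDKN2A, 0.31 for CCND3, 0.38 for CDK4, -0.63 for CDKN1B and -1.17 for CDKN2B, all still called. For CCNE1 the interaction was 0.36, with a 95% interval of 0.03 to 0.68 that is not adjusted, and was not called (limma, adjusted p = 0.0541). It was called without KYSE410 normoxia replicate 2, KYSE410 hypoxia replicate 1 or KYSE150 normoxia replicate 1 (limma, adjusted p = 0.0112 to 0.0497). Quantile normalization and no mean trend also gave a call (limma, adjusted p = 0.0159 and 0.0494), and no other alternative did. Across all alternatives the CCNE1 value ranged from 0.10 to 0.46 (limma, adjusted p = 0.0112 to 0.688). CCNE1 was near the floor in KYSE410, where the log2(FPKM + 1) scale understates a change.

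Levels between lines were compared on the assumption that FPKM is comparable between the separately deposited tables. In normoxia the sample-sheet numbers were 38 to 40 for KYSE410 and 50 to 52 for KYSE150. Line and library set therefore cannot be told apart there. In hypoxia, KYSE410 exceeded KYSE150 for 2 of the 10 genes and lay below it for 7, against 36.6% and 43.6% of all tested genes, and in normoxia it exceeded KYSE150 for none and lay below it for 9, against 40.4% and 38.8% (median of all genes -0.08 and 0.02). CCNE1, CCNE2 and CDKN1C were under the filter in KYSE410 and entered the joint fit only through their KYSE150 levels. Their differences are therefore given as levels, and their calls, counted above, add no support. Among the genes detected in both lines, the 3 cyclins showed the widest gaps in normoxia, with CCNE1 and CCNE2 near the floor in KYSE410. In hypoxia the log2 difference, KYSE410 minus KYSE150, was -1.45 for CCND3, -2.26 for CCNE1 and -1.75 for CCNE2, and in normoxia it was -2.03, -2.62 and -2.58 in the same order (limma, adjusted p at most 5.40e-09 for CCND3). The log2 difference was -1.52 in hypoxia and -0.75 in normoxia for CDKN1A, -0.83 and -0.45 for CDKN1B, and -0.98 and -0.23 for CDKN2B, all called. The normoxic CDKN2B call was lost after rescaling to a common sum and without KYSE410 normoxia replicate 1 or 3 or KYSE150 normoxia replicate 1 or 3 (limma, adjusted p = 0.053 to 0.244).

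For the kinases and CDKN2A the order of the lines depended on oxygen. CDK6 was 0.55 ± 0.20 higher in hypoxic KYSE410 than in hypoxic KYSE150 (limma, adjusted p = 0.0228), a call lost after rescaling to a common sum and without KYSE410 hypoxia replicate 1 or KYSE150 hypoxia replicate 1 or 2 (limma, adjusted p = 0.0535 to 0.11). In normoxia its difference was -0.43, with a 95% interval of -0.86 to 0.00, and was not called (limma, adjusted p = 0.0629); without KYSE150 normoxia replicate 2 it was -0.76 (limma, adjusted p = 8.75e-08). CDK4 differed by 0.15 in hypoxia, with a 95% interval of -0.02 to 0.33, and was not called (limma, adjusted p = 0.0991), although it was called without KYSE150 normoxia replicate 2 (limma, adjusted p = 0.00193); in normoxia it differed by -0.48 (limma, adjusted p = 0.000125). CDKN2A differed by 0.22 in hypoxia and -0.30 in normoxia (limma, adjusted p = 0.0492 and 0.011). The hypoxic CDKN2A call was lost when any hypoxic library was left out, and also without KYSE410 normoxia replicate 2 or 3 (limma, adjusted p = 0.053 to 0.107), and its value was 0.03 after quantile normalization; the normoxic difference was -0.17 without KYSE150 normoxia replicate 2.

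Within each group the genes were ordered by mean FPKM, a level per length. In hypoxic KYSE410 the order was CDK4, CDKN2A, CDKN1B, CDKN1A, CDK6, CCND3, CDKN2B, CCNE2, CCNE1 and CDKN1C, and in normoxic KYSE410 it was CDKN2A, CDK4, CDK6, CDKN1B, CCND3, CDKN1A, CDKN2B, CCNE1, CCNE2 and CDKN1C. In hypoxic KYSE150 the order was CDK4, CDKN2A, CDKN1C, CDKN1B, CDKN1A, CCND3, CDK6, CCNE2, CCNE1 and CDKN2B, and in normoxic KYSE150 it was CDK4, CDKN2A, CCND3, CDK6, CDKN1B, CDKN1A, CDKN1C, CCNE1, CDKN2B and CCNE2. Neighbours whose libraries overlapped were CDKN1A with CDK6 and CDKN2B with CCNE2 in hypoxic KYSE410; CDKN2A with CDK4 and CCND3 with CDKN1A in normoxic KYSE410; CDKN1B with CDKN1A and CCNE2 with CCNE1 in hypoxic KYSE150; and CDK4 with CDKN2A, CCND3 with CDK6, CDK6 with CDKN1B, and CCNE1 with CDKN2B in normoxic KYSE150. CDK4 and CDKN2A thus headed every group. CDKN1C came next in hypoxic KYSE150 and was last in both KYSE410 groups.

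CDKN2A lies in 9p21, a region often deleted in carcinomas, and its message was present in all 12 libraries. Of 10 neighbouring genes, MTAP, the methionine salvage enzyme next to CDKN2A, averaged 7.68 FPKM in hypoxic and 10.5 FPKM in normoxic KYSE410, and 7.59 FPKM in hypoxic and 10.5 FPKM in normoxic KYSE150. Its log2 change was -0.41 in KYSE410 and -0.42 in KYSE150 (limma, adjusted p = 0.000455 and 0.00349). FOCAD averaged 8.89 FPKM in hypoxic and 11 FPKM in normoxic KYSE410, and 6.17 FPKM in hypoxic and 6.90 FPKM in normoxic KYSE150. KLHL9 averaged 3.54 FPKM in hypoxic and 5.57 FPKM in normoxic KYSE410, and 5.25 FPKM in hypoxic and 5.42 FPKM in normoxic KYSE150. Of the list, 4 genes were tested in KYSE410 and all 4 were lower in hypoxia, among them ELAVL2 (7.05 FPKM in hypoxia and 8.25 FPKM in normoxia; not analysed here in KYSE150), whereas in KYSE150 5 were tested and MTAP alone was called. The list medians were -0.34 and -0.13, against medians of -0.21 and -0.13 over all tested genes, of which 51.9% were lower in KYSE410 and 38.8% in KYSE150. The KYSE410 count was 2 lower after median-of-ratios scaling, 1 lower after quantile normalization, and 1 higher and 1 lower with the length trend removed (median 0.08). Without KYSE150 normoxia replicate 2, 3 of the 5 were lower in KYSE150. MLLT3 averaged 0.796 FPKM in hypoxic and 0.609 FPKM in normoxic KYSE410 and 4.98 FPKM in hypoxic and 5.89 FPKM in normoxic KYSE150, while HACD4, MIR31HG, DMRTA1 and IFNE averaged under 1 FPKM in all 4 groups.

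Other genes of the pathway were taken from lists chosen by function, with earlier results of these data known. For scale, 31.2% of all tested genes rose and 51.9% fell in KYSE410 (median -0.21), and 23.5% rose and 38.8% fell in KYSE150 (median -0.13). These shares apply to each list below. Among 14 direct partners (D-type cyclins, CDK2, CDK-activating kinase subunits, other inhibitors and phosphatases), 12 were tested in each line; 5 rose and 7 fell in KYSE410 and 5 rose and 4 fell in KYSE150, with medians of -0.44 and 0.04. CCND1, for cyclin D1, averaged 13.5 FPKM in hypoxic and 53.3 FPKM in normoxic KYSE410, and 9.26 FPKM in hypoxic and 41.6 FPKM in normoxic KYSE150, with log2 changes of -1.91 and -2.06 (limma, adjusted p at most 1.45e-06). CDC25A, the phosphatase that activates CDK2, changed by -1.72 in KYSE410 and -1.14 in KYSE150, and CCNH, the cyclin of CDK-activating kinase, by -0.69 and -0.96. CDKN3, a CDK2-binding phosphatase, changed by -1.57 in KYSE410, and its log2 difference in KYSE150 was 0.13, which was not called. The remaining INK4 genes moved opposite to CDKN2B: CDKN2C, for p18, rose by 1.12 in KYSE410 and 0.93 in KYSE150, and CDKN2D, for p19, by 0.55 and 1.44 (limma, adjusted p at most 0.000422).

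Of 15 pocket protein and E2F genes, 13 were tested in KYSE410, where 5 rose and 5 fell (median -0.01), and 15 in KYSE150, where 3 rose and 7 fell (median -0.28). E2F6, a repressor E2F, changed by -1.79 in KYSE410 and -1.69 in KYSE150. E2F3 changed by -1.33 and -0.62 and E2F4 by -0.76 and -0.89. The activator gene E2F1 rose by 1.03 in KYSE410, and its log2 difference of 0.09 in KYSE150 was not called. E2F7, a repressor, fell in KYSE410 and rose in KYSE150 (-0.85 and 0.63), and RBL1 rose in KYSE410 and fell in KYSE150 (0.20 and -0.81); the response differed between lines by -1.49 for E2F7 and 1.01 for RBL1 (limma interaction, adjusted p at most 0.000848). E2F2, tested in KYSE150 alone, changed by -0.72. Median-of-ratios scaling gave 7 higher and 4 lower in KYSE410 (median 0.17).

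Of 22 S-phase genes known as E2F targets, 19 rose and 2 fell in hypoxic KYSE410, and 12 rose and 5 fell in hypoxic KYSE150, with medians of 0.78 and 0.30, against medians of -0.21 and -0.13 over all tested genes. ORC1 and CDT1, for origin licensing, rose by 2.03 and 1.99 in KYSE410 and by 0.93 and 1.36 in KYSE150; TYMS, for thymidylate synthase, rose by 1.54 in KYSE410 and 0.68 in KYSE150, RRM2, a ribonucleotide reductase subunit, by 1.48 in KYSE410 and 1.05 in KYSE150, and CCNA2, for cyclin A, by 0.68 and 1.53. The response was more positive in KYSE410 for 18 of the 22 and more negative for 2 (median 0.50), against 27.3% and 36.0% of all tested genes (median -0.09). The list's median stayed above 0 under every scaling run, from 0.58 to 1.01 in KYSE410 and from 0.30 to 0.46 in KYSE150. Leaving out 1 library in turn left 12 to 14 higher and 3 to 5 lower in KYSE150, with 14 and 5 when normoxia replicate 2 was out.

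Of 10 later cyclin and CDK genes, 9 were tested in each line. In KYSE410 2 rose and 6 fell in hypoxia (median -0.17), whereas in KYSE150 all 9 rose (median 0.68). In KYSE410 31.2% of all tested genes rose and 51.9% fell (median -0.21), so the list median there was near that of all genes. In KYSE150 23.5% rose and 38.8% fell (median -0.13). Leaving out 1 library in turn left 4 to 7 lower in KYSE410, with 4 when hypoxia replicate 3 was out. In KYSE150 it left 8 of the 9 higher when either of the normoxia replicates 1 and 3 or either of the hypoxia replicates 1 and 2 was out, and 9 otherwise. With no filter on low values, 8 of 10 rose and 1 fell in KYSE150. MKI67, a proliferation marker, changed by -1.37 in KYSE410 and 1.67 in KYSE150. Its normoxic KYSE150 libraries ranged from 7.50 to 19.6 FPKM, and the KYSE150 change had an SE of 0.30. Its values with the length trend removed are not given here. CCNB1, for cyclin B1, changed by -0.95 in KYSE410 and 1.20 in KYSE150, and CDK1 by 0.53 and 1.14. CDC25C, a phosphatase that activates CDK1, changed by -0.84 in KYSE410 and 0.41 in KYSE150, and WEE1, which encodes a kinase that inhibits CDK1, by -0.14 and 1.09. The response was more negative in KYSE410 for 8 of the 9 and more positive for none (median -0.79), under every scaling run. Among all tested genes 36.0% were more negative and 27.3% more positive (median -0.09). The KYSE410 balance itself turned with scaling, with 3 higher and 3 lower and a median of 0.07 after median-of-ratios scaling.

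**Figure D4:**
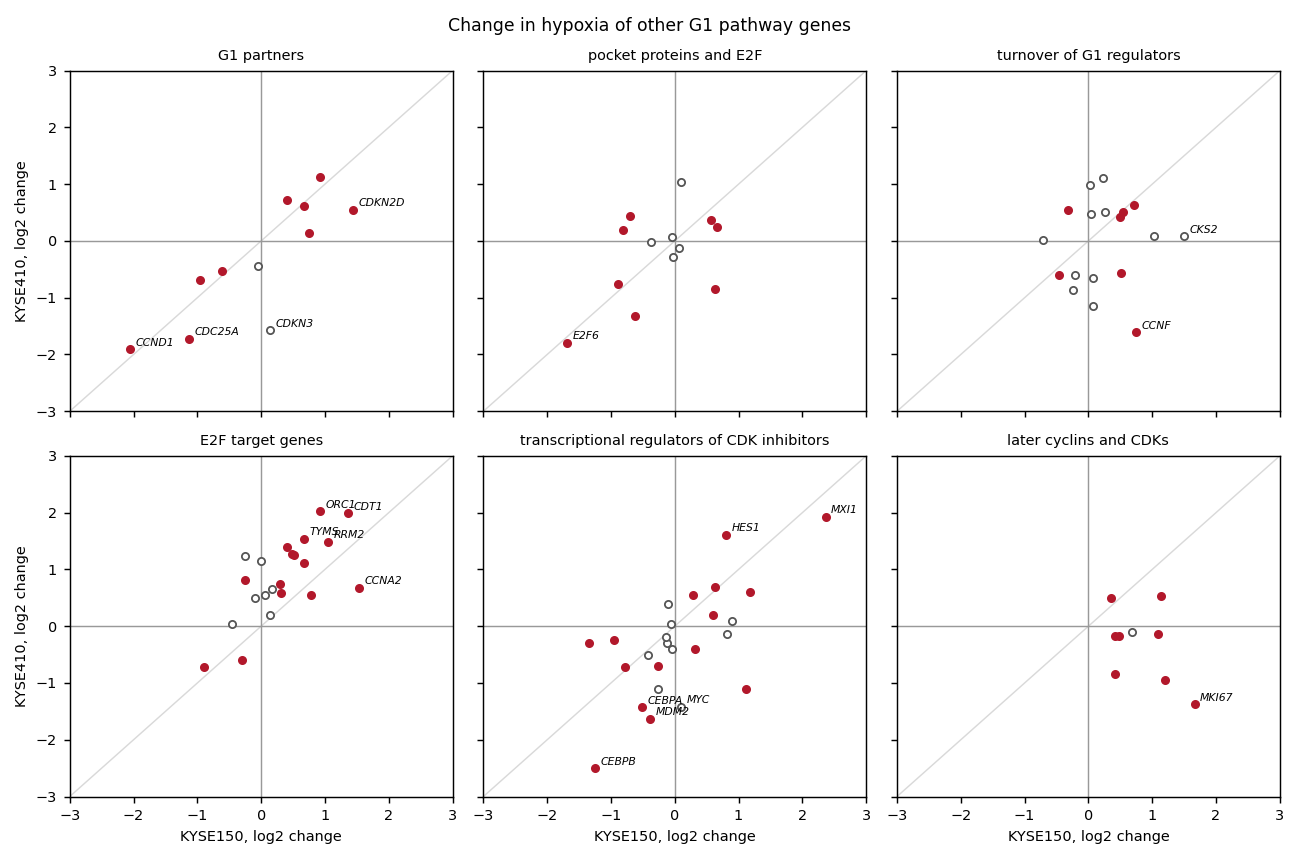
Log2 change in hypoxia of the genes of 6 pathway lists tested in both lines, on the log2(FPKM + 1) scale, with KYSE410 on the vertical and KYSE150 on the horizontal axis; red points were called in both lines, open points were not, the diagonal marks equal change, and genes changed by at least 1.4 in either line are named. E2F target genes gather in the upper right, while 6 of the later cyclin and CDK genes tested in KYSE410 fell there and rose in KYSE150.

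Among 19 genes that control turnover of G1 regulators, 8 rose and 8 fell in KYSE410 (median 0.08), and 7 of 18 tested rose and 3 fell in KYSE150 (median 0.16). The medians of all tested genes were -0.21 and -0.13. CCNF, for cyclin F, changed by -1.61 in KYSE410 and 0.75 in KYSE150. RBX1, the RING subunit of cullin ligases, rose by 1.12 in KYSE410, FBXO31 changed by -1.14 there, and USP2, tested in KYSE410 alone, by -0.99. In KYSE150 RBX1 and FBXO31 had log2 differences of 0.23 and 0.08, neither called. CKS2 rose by 1.5 and the deubiquitinase USP28 by 1.03 in KYSE150, and FBXO4 changed by -0.71. In KYSE410 these genes had log2 differences of 0.08, 0.09 and 0.02, none called.

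Of 28 genes that regulate transcription of the CDK inhibitors, 26 were tested in each line; 8 rose and 15 fell in KYSE410 and 10 rose and 7 fell in KYSE150. The list medians were -0.26 and -0.05, against -0.21 and -0.13 over all tested genes. MXI1, a MYC antagonist known to be induced by HIF, rose by 1.93 in KYSE410 and 2.37 in KYSE150. CEBPB changed by -2.50 and -1.25. MDM2, a p53 target and p53 ligase, changed by -1.63 in KYSE410 and -0.39 in KYSE150, and HES1, the Notch target, by 1.61 and 0.81. ID3 changed by -0.29 and -1.34, and SP1, which binds the CDKN1A promoter, by 0.61 and 1.18. Median-of-ratios scaling gave 10 higher and 11 lower in KYSE410.

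Over all 12 libraries, the genes whose log2(FPKM + 1) pattern was most like each member were found among 8180 or 8181 genes that averaged 5 FPKM or more. Libraries of a group share line and oxygen level, and only 4 groups make up the 12 points, so the values describe likeness and have no test. CCND3 was most like PRKCZ and PAGR1 (Pearson r = 0.996 and 0.995) and CCNE1 like B4GALT2 and MORF4L2 (0.995 for both). CDK4 was most like COX5A and UROD (0.977 and 0.969) and CDK6 like PPP4R3B and STX16 (0.978 and 0.977). CDKN1A was nearest to KHDRBS1 and to CDKN1B (0.994 and 0.989), CDKN1B to ITGA5 and CDK1 (0.997 and 0.994), and CDKN1C to TVP23A and PLIN2. For CDKN2A the nearest were TSR3 and ATP5F1D (0.963 and 0.960) and for CDKN2B SLC27A4 and GGPS1 (0.994 and 0.993).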

How the data were processed

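Messenger RNA was measured in 12 libraries, grouped by line and oxygen level from the labels (TRIzol extraction, VAHTS mRNA beads and the VAHTS Universal V8 kit, per the labels' protocols). FPKM values were deposited by the authors, in a table for each line; the unit was inferred from the values. HISAT2 2.2.1, fastp 0.22.0, bcl2fastq 2.20 and the build hg38 are named in the submitters' processing notes. Neither strand setting nor annotation nor quantifier is given in the sources used here. Depth is unknown, since low values show no steps of whole reads, so no counting interval is given; column sums were 351501 to 425094.

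Genes averaging 1 FPKM or more were tested on log2(FPKM + 1) with limma 3.58.1 (R 4.3.3), using its empirical Bayes test with a trend on the mean: 12054 genes in KYSE410, 12692 in KYSE150 and 12653 in a joint fit of all 12 libraries for the difference in response and the comparisons between lines. P-values were adjusted over all tested genes (Benjamini-Hochberg). Intervals are 95% and unadjusted. The fits were tested on simulated data. Positions and lengths were read from GENCODE, and promoters from the RefSeq table for GRCh38.p14. Windows on chromosome 8 were left out of the search, which removed CCNE2, and windows were used for 8 of 10 genes. Tables and plots were made with pandas 2.3.3, numpy 2.4.6 and matplotlib 3.10.9 in Python 3.11.15.

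The genes and lists were chosen with earlier results of these data known. Named genes were all 10 members, up to 4 called genes with the largest change per list and line whose groups did not overlap, the 9p21 neighbours, the 2 genes most like each member, and NDRG1 and CA9, given in both lines where both were tested. The genes most like CCNE2 are not reported here. Alternatives covered the pseudocount (0.1), the filter (none, 0.1 FPKM), median-of-ratios, quantile and common-sum scaling, the replicate block, no mean trend, a joint fit, leaving out each library and, added after seeing the data, removal of a trend with transcript length.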

Additional observations from a re-analysis of the deposited data

Results flagged for a closer look

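The response to hypoxia differed between lines, by a limma interaction test over all 12 libraries (adjusted p under 0.05), for 9 of the 10 genes. On the log2(FPKM + 1) scale the difference, KYSE410 minus KYSE150, was 0.58 for CCND3, 0.83 for CCNE2, 0.63 for CDK4, 0.98 for CDK6 and 0.52 for CDKN2A. It was -0.77 for CDKN1A, -0.38 for CDKN1B, -1.61 for CDKN1C and -0.75 for CDKN2B. CDK4 and CDKN2A were higher in hypoxia in KYSE410 and lower in KYSE150. In KYSE410 oxygen and library set cannot be told apart, so each difference also holds any effect of that set. CCNE2 was under the filter of 1 FPKM in KYSE410 and CDKN1C was listed at or near 0 there. Both entered the joint fit only through their KYSE150 levels, so their calls, counted above, add no support.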

How the results depend on the processing

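Of 902 member results under alternatives, 840 kept their direction and their side of the threshold, 46 lost a call, 11 gained one and 5 changed sign. The sign changes were CCNE2 in KYSE150 (0.053 after median-of-ratios scaling, 0.032 after quantile normalization and 0.053 with the length trend removed), CDKN2A in KYSE410 (-0.086 after rescaling to a common sum) and CDK4 between hypoxic lines (-0.019 after quantile normalization); the causes were not tested. Rescaling to a common sum, which moved the median of all KYSE410 genes to -0.46, left 4 members called in KYSE410 in place of 7. Of the 7 members tested in KYSE410, 4 to 7 were called there across all alternatives. The range was 7 to 9 in KYSE150 and 8 to 10 for the difference in response. These counts leave out CCNE2 in KYSE410, where it was under the filter. It was called there with no filter, with a minimum of 0.1 FPKM and in the joint fit (limma, adjusted p at most 0.0025). With the replicate number as a block, 9931 genes were called in KYSE410 and 7757 in KYSE150, against 10017 and 7906 without it, and 7 and 9 members. After each gene's group mean was subtracted, same-numbered hypoxic and normoxic libraries correlated at -0.045, -0.008 and 0.02 in KYSE410 and at -0.069, 0.084 and 0.051 in KYSE150. Differently numbered ones ranged from -0.038 to 0.043 in KYSE410 and from -0.097 to 0.11 in KYSE150. Whether a shared number marks a shared culture cannot be told from these values. The block changed 1 member call, CDKN2A between hypoxic lines (adjusted p = 0.0553). Without whole-read depth, precision at low FPKM (CCNE1, CCNE2 and CDKN1C in KYSE410) is not known.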
